A study of Homo sapiens with 12 samples.

Results

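The cytosolic ribosomal protein genes encode the protein part of the ribosomes that translate nuclear messages. They were taken here as every gene of the expression table whose symbol is RPL or RPS followed by a number (with an A or X where there is one), together with RPLP0, RPLP1, RPLP2 and RPSA. Symbols of pseudogenes were left out. This gave 77 genes of the 56593 distinct symbols in the table, 46 of the large (60S) subunit and 31 of the small (40S) subunit. The choice used symbols only and no measured value.

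The study followed human early hematopoietic differentiation from H1, a human embryonic stem cell line. RNA sequencing was made of undifferentiated H1 cells and of H1-derived APLNR+ cells at day 2, CD31+CD34+ cells at day 5 and CD43+ cells at day 8, with 3 libraries each and 12 in all. The differentiating cultures received activin A and BMP4 first and VEGF and bFGF afterwards. All libraries come from the same stem cell line, and the labels do not say whether the 3 libraries of a population are separate cultures, so p values measure the spread between these libraries only. Expression is given in FPKM, a unit in which fragments are scaled to transcript length and library size. The gene annotation and the scaling used here are not given, so levels of different genes can be compared only roughly.

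A ribosome holds 1 copy of most of its proteins, and cells usually make them in balanced amounts. Most of the messages begin with a C and a run of pyrimidines, the terminal oligopyrimidine or TOP motif, through which mTOR and LARP1 control their translation. Loss of 1 copy of several of these genes causes Diamond-Blackfan anemia, a failure of red cell production, so their levels are of interest on the way from stem cells to blood.

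The starts of the messages show what most members share although the symbols did not ask for it. RefSeq promoter windows of GRCh38.p14 were matched by symbol for 61 members, and 46 of these (75.4%) had a TOP start, here a C at the annotated start followed by at least 4 C or T. Where a gene had several windows, 1 with the motif was enough. Over the promoter windows of all 27305 genes, 5.14% had such a start, and of 10315 other genes tested below 7.09%. The tracts ran from 5 to 19 bases with a median of 8. The windows of named members below run from 40 bases before the annotated start to 20 bases from it, 5′ to 3′ on the gene's strand, with the pyrimidine tract from the start in capitals. RPS24, RPL11, RPL36A, RPL22 and RPL39 are shown because they stood low in CD31+CD34+ cells. RPL18, RPL28, RPL36 and RPLP0 are shown because they were higher there than in APLNR+ cells. RPS27 and RPL13 were taken because they differed between replicates, and RPS26 as a member with no tract at its annotated start.
RPS24, chr10:78033823-78033882, plus strand: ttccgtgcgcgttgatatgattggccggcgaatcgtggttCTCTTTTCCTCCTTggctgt
RPL11, chr1:23691766-23691825, plus strand: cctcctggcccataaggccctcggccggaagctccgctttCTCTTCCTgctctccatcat
RPL36A, chrX:101390971-101391030, plus strand: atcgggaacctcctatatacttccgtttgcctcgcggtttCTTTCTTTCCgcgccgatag
RPL22, chr1:6199576-6199635, minus strand: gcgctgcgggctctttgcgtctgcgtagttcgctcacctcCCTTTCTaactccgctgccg
RPL39, chrX:119791611-119791670, minus strand: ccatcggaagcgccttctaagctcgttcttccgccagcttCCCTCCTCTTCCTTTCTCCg
RPL18, chr19:48619159-48619218, minus strand: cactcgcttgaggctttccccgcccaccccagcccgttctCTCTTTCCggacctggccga
RPL28, chr19:55385892-55385951, plus strand: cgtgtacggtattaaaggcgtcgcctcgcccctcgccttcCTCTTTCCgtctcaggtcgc
RPL36, chr19:5690255-5690314, plus strand: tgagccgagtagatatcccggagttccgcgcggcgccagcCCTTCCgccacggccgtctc
RPLP0, chr12:120201092-120201151, minus strand: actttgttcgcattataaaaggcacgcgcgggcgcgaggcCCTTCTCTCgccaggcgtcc
RPS27, chr1:153990722-153990781, plus strand: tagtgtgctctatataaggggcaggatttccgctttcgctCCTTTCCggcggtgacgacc
RPL13, chr16:89560642-89560701, plus strand: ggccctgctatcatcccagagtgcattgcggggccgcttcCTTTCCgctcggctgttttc
RPS26, chr12:56041878-56041937, plus strand: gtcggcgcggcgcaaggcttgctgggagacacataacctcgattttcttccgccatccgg

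With a tract allowed to begin within 10 bases of the annotated start, 93.4% of the matched members and 38.4% of all genes had one. Among other translation genes, the start motif stood in 40.7% of 27 translation factor genes, in 9.76% of 41 ribosome biogenesis genes and in 8.70% of 69 mitochondrial ribosomal protein genes. The motif CCGGAAG, a core recognised by ETS family factors, stood on either strand in 36.1% of the members' windows of 250 bases before to 50 after the start. Its share was 12.2% over all genes, 21.7% over other genes tested and 43.5% over the mitochondrial ribosomal protein genes. ATGGCGG, a core recognised by YY1, stood in the windows of 21.3% of the members, 6.66% of all genes and 12.1% of other genes tested. Its share was 34.8% over mitochondrial ribosomal protein genes, 22.2% over translation factor genes and 17.1% over ribosome biogenesis genes. CCGGAAG read on the other strand begins with pyrimidines that can be part of a TOP tract, so these matches can share bases. They are matches of letters and no measure of binding.

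Of the 77 members, 76 reached 1 FPKM in at least 3 libraries and entered the tests together with 14840 genes in all. The exception was RPS29, a small subunit protein, which was listed at exactly 0 in all 12 libraries. A 0 here can be a failed estimate, since the elongation factor gene EEF1A1, needed in all cells, also had a 0 in 6 libraries. No other member had a 0 in any library. Levels of the members were high, with a mean over 1000 FPKM for 49 of them.

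RPS27, a small subunit protein with a zinc finger, had the highest mean. Next came RPL37A, RPS18, RPL35 and RPS19. RPL28 had the lowest mean apart from RPS29 and was the one tested member under 100 FPKM in every library, between 25.8 and 74.7 FPKM. RPL22, a large subunit protein with roles in lymphocyte development, was next lowest with 40.8 to 235 FPKM.

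Each population was checked against 6 marker genes, such as POU5F1 for H1 and PECAM1 for CD31+CD34+ cells. PECAM1 itself was higher in CD43+ cells, at a mean of 95.9 FPKM, than in CD31+CD34+ cells, at 55.2 FPKM. APLNR was at a mean of 383 FPKM in APLNR+ cells and 403 FPKM in CD31+CD34+ cells. TAL1, a marker listed for CD43+ cells, was at 65.0 FPKM there and at 82.9 FPKM in CD31+CD34+ cells. Of its own markers, H1 had 6 of 6 at a mean of at least 10 FPKM and APLNR+ cells had 5 of 6. CD31+CD34+ cells had 6 of 6 and CD43+ cells 5 of 6. Markers were not confined to their population. In APLNR+ and in CD31+CD34+ cells 4 of 6 H1 markers also reached that level, as did 5 of 6 CD31+CD34+ markers in CD43+ cells. Of 12 markers of other cell types, 1 in H1 and 2 in each of the other populations reached that level, and their summed level was 40.3 to 47.6 FPKM in H1, 98.5 to 117 in APLNR+, then 314 to 355 in CD31+CD34+ and 77.9 to 84.4 in CD43+ cells. Summed FPKM over all genes ran from 567793 to 1564450 per library, and genes of small RNAs held 10.4% to 66.2% of it. The part of other cell types and of small RNAs in the results below was not tested. In bulk RNA, a shift in the mixture of cells and a change of RNA within cells cannot be told apart.

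Summed over the members, FPKM was lowest in the day 2 and day 5 populations and highest in CD43+ cells. The H1 libraries held 116744, 111284 and 109445 FPKM, the APLNR+ libraries 79050, 84270 and 80559, the CD31+CD34+ libraries 75459, 86020 and 81753, and the CD43+ libraries 130704, 151177 and 144044. Every CD43+ library lay above every H1 library, every H1 library lay above the libraries of the APLNR+ and CD31+CD34+ populations, and those overlapped. Mean sums in H1 and APLNR+ cells were 112491 ± 3796 and 81293 ± 2686, and those in CD31+CD34+ and CD43+ cells were 81077 ± 5312 and 141975 ± 10392 (SD, n = 3). As a share of the FPKM of all genes without small RNAs, the members held 19.5% ± 1.92 in H1, 16.3% ± 0.498 in APLNR+, then 16.2% ± 3.11 in CD31+CD34+ and 25.9% ± 5.07 in CD43+ cells (SD, n = 3). Libraries overlapped more in these shares than in the sums. The lowest CD43+ library, at 20.1%, lay below the highest H1 library, at 21.7%, and the highest CD31+CD34+ library, at 18.9%, lay above H1 libraries at 18.7% and 18.1%. As a share of all genes with small RNAs, the members held 8.28% ± 0.945 in H1 and 7.95% ± 3.73 in APLNR+ cells, and 11.6% ± 5.34 in CD31+CD34+ and 21.5% ± 3.89 in CD43+ cells (SD, n = 3), another order than that of the sums. With 3 libraries a side, exact permutation allows no p below 0.1, so these sums carry no p value.

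**Figure D1:**
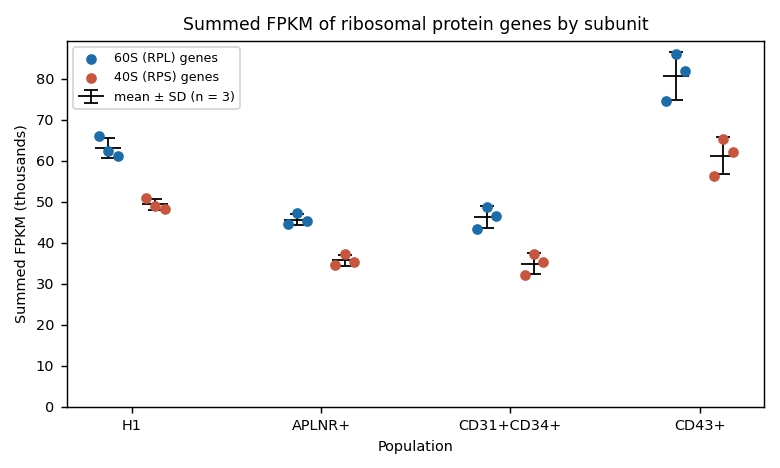
Summed FPKM, in units of 1000, of the 60S (blue) and 40S (red) ribosomal protein genes in each library (points) by population, with mean ± SD (n = 3). Both subunits were lowest in APLNR+ and CD31+CD34+ libraries and highest in CD43+ libraries.

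The sums of both subunits moved side by side. The 60S sum divided by the 40S sum was 1.28 ± 0.0163 in H1 and 1.28 ± 0.0122 in APLNR+ cells, and it was 1.33 ± 0.0232 in CD31+CD34+ and 1.32 ± 0.00494 in CD43+ cells (SD, n = 3), and all 12 libraries lay between 1.27 and 1.35. Within that span the lowest CD31+CD34+ or CD43+ library, at 1.312, lay above the highest H1 or APLNR+ library, at 1.298. Single genes did not stay so even. The interquartile range of the members' log2(FPKM + 1) within a library was 1.01 ± 0.0124 in H1 and 0.981 ± 0.0308 in APLNR+ cells, and it was 1.68 ± 0.0308 in CD31+CD34+ and 1.49 ± 0.104 in CD43+ cells (SD, n = 3). The lowest CD31+CD34+ or CD43+ library, at 1.37, lay above the highest H1 or APLNR+ library, at 1.02. Across the 76 members the rank correlation of population means was 0.982 between H1 and APLNR+ cells, 0.567 between H1 and CD31+CD34+ cells, 0.918 between CD31+CD34+ and CD43+ cells and 0.782 between H1 and CD43+ cells. Pairs of libraries within a population had rank correlations of 0.943 to 0.997. These correlations are over genes of the same libraries and describe them only.

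**Figure D2:**
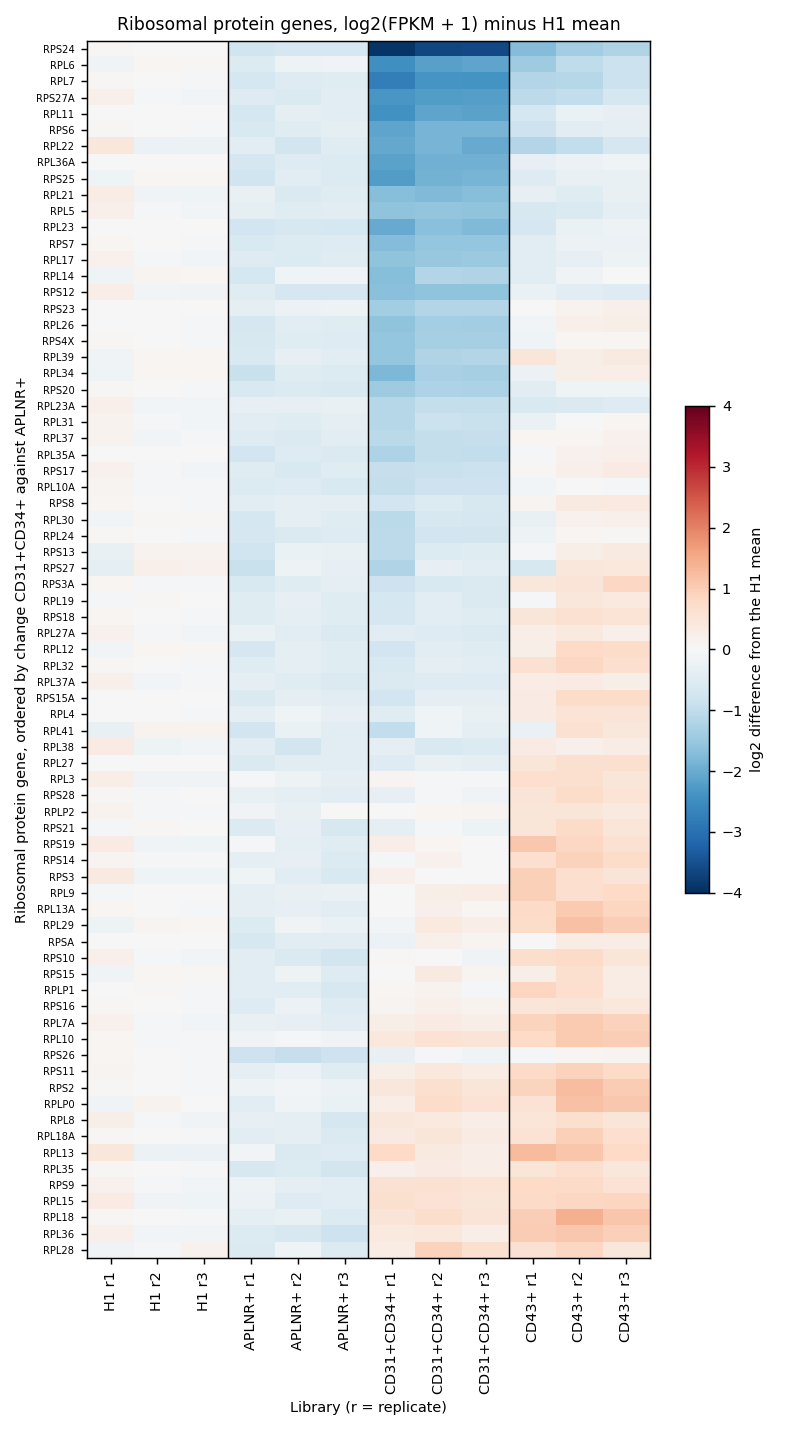
log2(FPKM + 1) minus the H1 mean for the tested ribosomal protein genes (rows, 1 of the 76 not shown, ordered by the change from APLNR+ to CD31+CD34+ cells) in each of the 12 libraries (columns), blue lower and red higher. APLNR+ libraries are evenly pale blue, while CD31+CD34+ libraries run from dark blue (RPS24 at the top) to red (RPL28 at the bottom).

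The first comparison asks what changed between undifferentiated H1 cells and the APLNR+ mesoderm of day 2. Ribosomal protein genes fell together and by similar amounts. With limma on log2(FPKM + 1) and Benjamini-Hochberg adjustment over all tested genes, 62 of 76 members fell, 0 rose and 14 were not called. Over all genes, 35.2% were called lower and 22.7% higher. The members' changes ran from -0.86 to -0.12 with a median of -0.47 (log2), beside a median of -0.12 over all genes. No member passed 2-fold, where 7.62% of all genes were called lower and 8.3% higher. In 65 members every APLNR+ library lay below every H1 library, which held for 40.0% of all genes.

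RPS26, a Diamond-Blackfan gene whose protein sits at the exit channel for the message, had the largest fall. It was at 406, 387 and 367 FPKM in H1 and at 215, 205 and 218 FPKM in APLNR+ libraries. The populations lay far apart, and the change was -0.86 ± 0.09 (log2 ± SE, limma adjusted p = 5.96e-06). RPS24 and RPL23 followed with changes of -0.71 ± 0.13 (adjusted p = 0.000642) and -0.69 ± 0.13 (adjusted p = 0.000687).

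These calls depend on how libraries are scaled. After quantile normalization 15 members were called lower and 1 higher with a median change of -0.15, beside 32.4% and 25.4% of all genes. After rescaling to a common sum without small RNAs 1 was called lower and 0 higher with a median of -0.25, beside 17.5% and 24% of all genes. Under both settings the share of members called lower, 19.7% and 1.32%, was thus below that of all genes, the reverse of the values as deposited. Centring libraries on coding genes of like GC content, described with the next comparison, gave 67 lower and 0 higher, beside 39.7% and 25.2% of all genes. Rescaling moved the median of all genes from -0.12 to 0.04, and quantile normalization moved it to -0.07, so under both of these the members' median change was below the median of all genes. The lists of other translation genes were lower as well. Of 78 mitochondrial ribosomal protein genes 59 fell and 0 rose, of 45 ribosome biogenesis genes 37 fell and 2 rose, and of 35 translation factor genes 21 fell and 2 rose. Their medians were -0.56, -0.58 and -0.37. These counts are from the values as deposited, where 35.2% of all genes were called lower and 22.7% higher.

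The second comparison asks how CD31+CD34+ endothelial cells of day 5 differ from APLNR+ cells. Here the members divided. Of 76 members 28 rose, 29 fell and 19 were not called, with limma as before, at a median of -0.06 (log2). Among all genes 35.9% were called higher and 37.9% lower with a median of -0.01, so the counts of members in each direction were close to those of all genes. Changes ran from -3.02 to 1.07. Past 2-fold, 16 members fell and 3 rose, beside 17.1% and 12.5% of all genes. Libraries of the populations did not overlap in 27 members that were higher and 30 that were lower, beside 36.9% and 38.9% of all genes.

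RPS24, a small subunit protein needed for processing of the 18S rRNA precursor and a Diamond-Blackfan gene, had the largest fall. It was at 1546, 1691 and 1660 FPKM in APLNR+ libraries and at 174, 215 and 216 FPKM in CD31+CD34+ libraries. Its mean fell to 0.12 times the APLNR+ level, a change of -3.02 ± 0.13 (log2 ± SE, limma adjusted p = 2.23e-09). RPL6, a large subunit protein, was at 519, 665 and 688 FPKM in APLNR+ and 139, 168 and 175 FPKM in CD31+CD34+ libraries, a change of -1.95 ± 0.16 (adjusted p = 3.5e-07). For RPL7, another large subunit protein, the values were 795, 897 and 935 FPKM in APLNR+ and 191, 251 and 246 FPKM in CD31+CD34+ libraries, with a change of -1.94 ± 0.12 (adjusted p = 4.68e-08). In all 3 genes the populations were widely separated.

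Rises were smaller. The large subunit gene RPL28 rose from 25.8, 35.0 and 26.5 FPKM to 48.6, 74.7 and 61.6 FPKM, a change of 1.05 ± 0.17 (adjusted p = 0.000107). RPL36 rose from 465, 433 and 386 FPKM to 896, 914 and 812 FPKM, a change of 1.03 ± 0.11 (adjusted p = 3.94e-06). In both genes all CD31+CD34+ libraries lay above all APLNR+ libraries.

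The direction of a member at this step went with the base composition of its transcript. GC content from GENCODE 29 transcripts ran from 42.7% to 62.8% over the tested members, with a median of 50.6%. Across members, the rank correlation of the change with GC content was 0.77, and across 5585 protein-coding genes at 10 FPKM or more it was 0.71. With transcript length the members' correlation was -0.06. Of the 25 members of lowest GC content, 2 rose and 19 fell with a median of -0.85. In the middle 25, 4 rose and 10 fell with a median of -0.07, and of the 26 of highest GC content 22 rose and 0 fell with a median of 0.60. Other coding genes in the same ranges of GC content had medians of -0.50, 0.23 and 0.72. The part of base composition in these changes was examined by an alternative that centred each library on coding genes of like GC content.

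After that centring 16 members rose and 32 fell, with a median of -0.21, while 33.7% of all genes were called higher and 34% lower. Quantile normalization gave 22 rises and 38 falls with a median of -0.33, beside 38.3% and 36.2% of all genes. With centring or quantile normalization the share of members that fell was above that of all genes and the share that rose was below it. Rescaling without small RNAs gave 21 rises and 25 falls, or 27.6% and 32.9% of members, beside 30.7% and 35.1% of all genes. Both shares of members were then below those of all genes. RPS24 kept a change of -2.43, RPL6 of -2.03, RPL11 of -1.60 and RPL7 of -1.20 after centring by GC content. The changes of RPL28 and RPL36 were then 0.42 and 0.25, both still called. RPL9, singled out after its values were seen, stood apart from the trend. It has the lowest GC content of the tested members and was at 915, 951 and 964 FPKM in APLNR+ and 1166, 1382 and 1426 FPKM in CD31+CD34+ libraries, a rise of 0.48 ± 0.10 (adjusted p = 0.00116) and of 1.27 after centring.

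**Figure D3:**
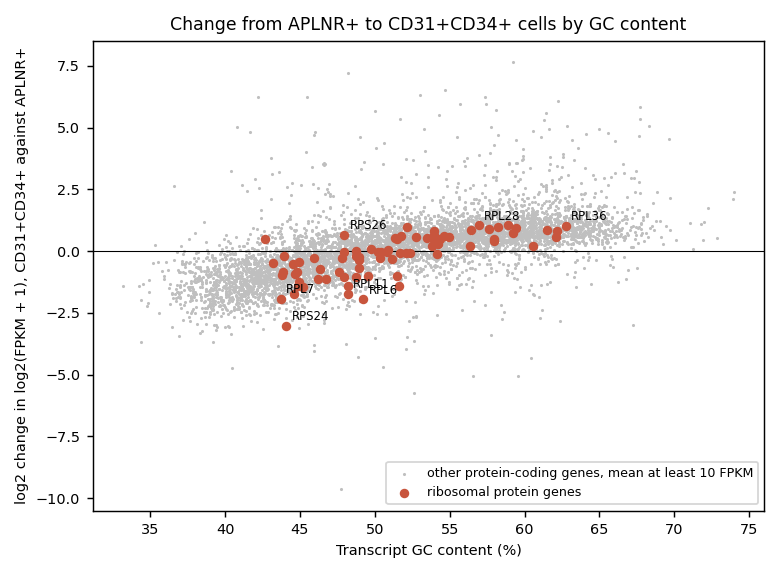
Change in log2(FPKM + 1) from APLNR+ to CD31+CD34+ cells (vertical axis) against transcript GC content in percent (horizontal axis) for the 76 ribosomal protein genes (red) and other protein-coding genes with a mean of at least 10 FPKM (grey). Both sets slope upward, and RPS24 and RPL6 lie at the lower edge of the grey cloud at their GC content.

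The third comparison asks how CD43+ blood progenitors of day 8 differ from the CD31+CD34+ cells of day 5. Ribosomal protein genes rose almost throughout. Of 76 members 66 rose, 0 fell and 10 were not called (limma, as before), while 25.9% of all genes were called higher and 27.8% lower. The median was 0.81 (log2) with a range from 0.01 to 2.28, beside a median of -0.00 over all genes. Past 2-fold, 30 members rose, as did 5.58% of all genes, and 0 fell, as did 8.79% of all genes. In 67 members every CD43+ library lay above every CD31+CD34+ library, which held for 28.0% of all genes. The counts were 42 of 46 for the 60S subunit and 24 of 30 for the 40S subunit.

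RPS24 again led, from 174, 215 and 216 FPKM in CD31+CD34+ to 801, 1010 and 1156 FPKM in CD43+ libraries, a rise of 2.28 ± 0.13 (log2 ± SE, adjusted p = 3.83e-08). RPL11 binds the 5S rRNA together with RPL5, and the complex restrains MDM2, the ubiquitin ligase of p53. It was at 378, 469 and 458 FPKM in CD31+CD34+ and 1263, 1690 and 1638 FPKM in CD43+ libraries, a rise of 1.81 ± 0.13 (adjusted p = 2.93e-07). RPL36A rose from 350, 414 and 411 FPKM to 1231, 1315 and 1368 FPKM, by 1.74 ± 0.09 (adjusted p = 2.05e-08). All 3 are members that fell at the CD31+CD34+ step, and both comparisons use the same CD31+CD34+ libraries.

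The rise was seen at each GC content. Members of low, middle and high GC content had medians of 1.35, 0.87 and 0.53, with 24 of 25, 22 of 25 and 20 of 26 called higher. Other coding genes of the same ranges had medians of 0.16, 0.00 and -0.19. After centring by GC content 74 members rose and 0 fell, with a median of 0.93, beside 31.8% and 28.4% of all genes. Quantile normalization gave 48 rises and 3 falls with a median of 0.47, beside 29.7% and 26.4% of all genes.

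The fourth comparison sets CD43+ cells against the H1 cells they were derived from. More members were higher in CD43+ cells than lower, with 40 of 76 called higher, 17 lower and 19 not called, beside 33.2% and 41.5% of all genes. The median was 0.29 (log2) and that of all genes -0.10. Past 2-fold stood 4 members that rose and 3 that fell, where 14.6% and 22.5% of all genes did. In 41 members the CD43+ libraries lay wholly above the H1 libraries and in 17 wholly below, beside 33.9% and 42.4% of all genes. Under quantile normalization, which moved the median of all genes from -0.10 to 0.02, the split was 26 higher and 22 lower with a median of 0.049, beside 38.2% and 37.2% of all genes, so the share of members called higher was then below that of all genes. Rescaling without small RNAs gave 35 higher and 6 lower, beside 30.5% and 36.5% of all genes, and centring by GC content 37 higher and 13 lower, beside 36.5% and 39.3%.

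RPL18, a large subunit protein and Diamond-Blackfan gene, was at 1186, 1150 and 1125 FPKM in H1 and at 2292, 3092 and 2464 FPKM in CD43+ libraries, a rise of 1.17 ± 0.12 (log2 ± SE, limma adjusted p = 2.2e-06). RPL13 rose by 1.06 ± 0.21 (adjusted p = 0.000679), RPS2 by 1.04 ± 0.11 (adjusted p = 1.93e-06) and RPL36 by 1.00 ± 0.11 (adjusted p = 3.73e-06). RPS24, RPL6 and RPL7 were below their H1 level in every CD43+ library, with changes of -1.45 ± 0.13 (adjusted p = 7.3e-07), -1.10 ± 0.16 (adjusted p = 3.79e-05) and -1.07 ± 0.12 (adjusted p = 6.09e-06). This comparison also followed GC content. All 17 falls were in the low and middle GC ranges, and of the 26 members of high GC content 25 rose. The rank correlation of change with GC content was 0.67 over members and 0.54 over the 5585 coding genes. By mean FPKM over the 4 populations, 55 members were highest in CD43+ cells and 21 in H1 cells, and 42 were lowest in CD31+CD34+ and 34 in APLNR+ cells.

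The proteins of some parts of the ribosome are given next. The P stalk, formed by RPLP0 with RPLP1 and RPLP2, recruits the translation factors. RPLP0 was at 1378, 1681 and 1561 FPKM in H1, 1112, 1389 and 1275 in APLNR+, then 1830, 2568 and 2315 in CD31+CD34+ and 2286, 3429 and 3227 in CD43+ libraries. Its APLNR+ and H1 libraries overlapped (-0.29 ± 0.17, adjusted p = 0.167), and it rose by 0.82 ± 0.17 at the CD31+CD34+ step (adjusted p = 0.00096). At the CD43+ step its libraries overlapped again and the change was 0.41 ± 0.17 (adjusted p = 0.0651). RPLP0 was lower in replicate 1 than in the other replicates, by 0.36 on average (SE 0.07). With a term for replicate 1, described below, both changes were called (limma adjusted p = 0.0139 at the APLNR+ and 0.00224 at the CD43+ step). RPLP1 rose by 0.57 ± 0.13 at the CD31+CD34+ step (adjusted p = 0.00199) and by 0.55 ± 0.13 at the CD43+ step (adjusted p = 0.00359). RPLP2 had 0.20 ± 0.10 at the CD31+CD34+ step (adjusted p = 0.0888) and rose by 0.39 ± 0.10 at the CD43+ step (adjusted p = 0.00534). After centring by GC content RPLP2 had -0.56 at the CD31+CD34+ step, a called fall. RPSA, the small subunit protein also known as the laminin receptor, fell by 0.50 on the log2 scale in APLNR+ cells (SE 0.13, adjusted p = 0.00557) and rose by 0.52 ± 0.13 in CD31+CD34+ cells (adjusted p = 0.00281). Its change between CD31+CD34+ and CD43+ cells was 0.17 ± 0.13 (adjusted p = 0.293).

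Of 20 Diamond-Blackfan genes among the members, 19 were tested. At the APLNR+ step 17 fell and 0 rose, at the CD31+CD34+ step 6 rose and 9 fell, at the CD43+ step 16 rose and 0 fell, and in CD43+ against H1 cells 8 rose and 5 fell. Their medians were -0.51, -0.19, 0.99 and 0.12 (log2). At the APLNR+ step 89.5% fell, beside 81.6% of members and 35.2% of all genes. At the CD31+CD34+ step 31.6% rose and 47.4% fell, beside 36.8% and 38.2% of members and 35.9% and 37.9% of all genes. At the CD43+ step 84.2% rose, beside 86.8% of members and 25.9% of all genes. In CD43+ against H1 cells 42.1% rose and 26.3% fell, beside 52.6% and 22.4% of members and 33.2% and 41.5% of all genes. RPS19, the gene most often affected in the disease, was at 3100, 2239 and 2191 FPKM in H1, 2357, 1886 and 1772 in APLNR+, then 2958, 2635 and 2455 in CD31+CD34+ and 5218, 4412 and 3793 in CD43+ libraries. In CD43+ cells it lay above the CD31+CD34+ level (0.73 ± 0.17, adjusted p = 0.00315) and the H1 level (0.84 ± 0.17, adjusted p = 0.00066).

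RPL5, the partner of RPL11, was at 1078, 880 and 861 FPKM in H1, 707, 667 and 679 in APLNR+, then 305, 315 and 306 in CD31+CD34+ and 604, 629 and 714 in CD43+ libraries. It fell by 1.15 on the log2 scale at the CD31+CD34+ step (SE 0.10, adjusted p = 8.48e-07) and was still below H1 in CD43+ cells (-0.53 ± 0.10, adjusted p = 0.000474). RPL11 had changes of -0.51 ± 0.13, -1.72 ± 0.13, 1.81 ± 0.13 and -0.43 ± 0.13 at the 4 comparisons, each called. RPS26 took another course. From its APLNR+ low it rose to 312, 364 and 340 FPKM in CD31+CD34+ libraries (0.66 ± 0.09, adjusted p = 2.94e-05), and at 363, 407 and 418 FPKM in CD43+ libraries it overlapped the H1 libraries (0.03 ± 0.09, adjusted p = 0.737).

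Several members have paralogs that the symbol rule left out. RPL3L and RPL10L, known from muscle and testis, stayed under the 1 FPKM filter, with the highest library of RPL3L at 0.624 FPKM and of RPL10L at 0.078 FPKM. Of the other 6, 4 fell at the APLNR+ step, 5 fell at the CD31+CD34+ step, and at the CD43+ step 4 rose and 1 fell. Over all genes, 35.2% were called lower at the APLNR+ step and 37.9% at the CD31+CD34+ step. At the CD43+ step 25.9% of all genes were called higher and 27.8% lower, and 6 genes are too few to set against these shares.

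RPL22L1, the paralog of RPL22, was the more abundant of the pair. It was at 428, 354 and 363 FPKM in H1, 211, 211 and 223 in APLNR+, then 58.7, 63.6 and 67.0 in CD31+CD34+ and 196, 186 and 211 in CD43+ libraries. RPL22 was at 235, 148 and 148 FPKM in H1, 126, 104 and 124 in APLNR+, then 40.8, 47.0 and 42.3 in CD31+CD34+ and 75.9, 87.1 and 109 in CD43+ libraries. Both were called lower, lower, higher and lower at the 4 comparisons, with changes of -0.82, -1.76, 1.63 and -0.94 for RPL22L1 and of -0.55, -1.42, 1.03 and -0.94 for RPL22.

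RPL39L parted from RPL39. RPL39L was at 73.3, 61.2 and 59.9 FPKM in H1, 41.8, 38.5 and 38.6 in APLNR+, then 42.5, 39.2 and 42.4 in CD31+CD34+ and 13.8, 14.2 and 14.8 in CD43+ libraries. RPL39 was at 1111, 1282 and 1296 FPKM in H1, 803, 970 and 907 in APLNR+, then 419, 528 and 548 in CD31+CD34+ and 1699, 1428 and 1568 in CD43+ libraries. At the CD43+ step RPL39L fell by 1.47 on the log2 scale (SE 0.09, adjusted p = 6.24e-08) and RPL39 rose by 1.66 ± 0.13 (adjusted p = 4.06e-07). At the CD31+CD34+ step RPL39L had a change of 0.06 ± 0.09 (adjusted p = 0.562) and RPL39 fell by 0.85 on the log2 scale (SE 0.13, adjusted p = 6.76e-05). The difference between the genes of a pair was not tested.

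RPL36AL fell by 2.59 on the log2 scale at the CD31+CD34+ step (SE 0.12, adjusted p = 3.07e-09), from 150, 177 and 173 FPKM to 22.97, 28.2 and 29.5 FPKM, and stood at 48.1, 61.9 and 59.6 FPKM in CD43+ libraries against 251, 250 and 244 FPKM in H1. RPL36A returned closer to its H1 level, with a change of -0.26 ± 0.09 in CD43+ against H1 cells (adjusted p = 0.0256), where RPL36AL had -2.12 ± 0.12 (adjusted p = 7.99e-09). After centring by GC content RPL36A had a called rise of 0.27 in that comparison. RPS27L, a paralog that p53 induces, was at 70.5, 78.7 and 84.8 FPKM in APLNR+, 15.6, 22.0 and 25.9 in CD31+CD34+ and 63.3, 86.5 and 110 in CD43+ libraries, with changes of -1.86 ± 0.20 (adjusted p = 3.98e-06) and 1.98 ± 0.20 (adjusted p = 4.7e-06). RPL26L1 and RPL7L1 were below 70 FPKM in every library, with ranges of 14.7 to 34.1 and 34.5 to 69.8 FPKM. Reads shared between near-identical copies may have been divided by the authors' estimates, so these pairs are uncertain to that extent.

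**Figure D4:**
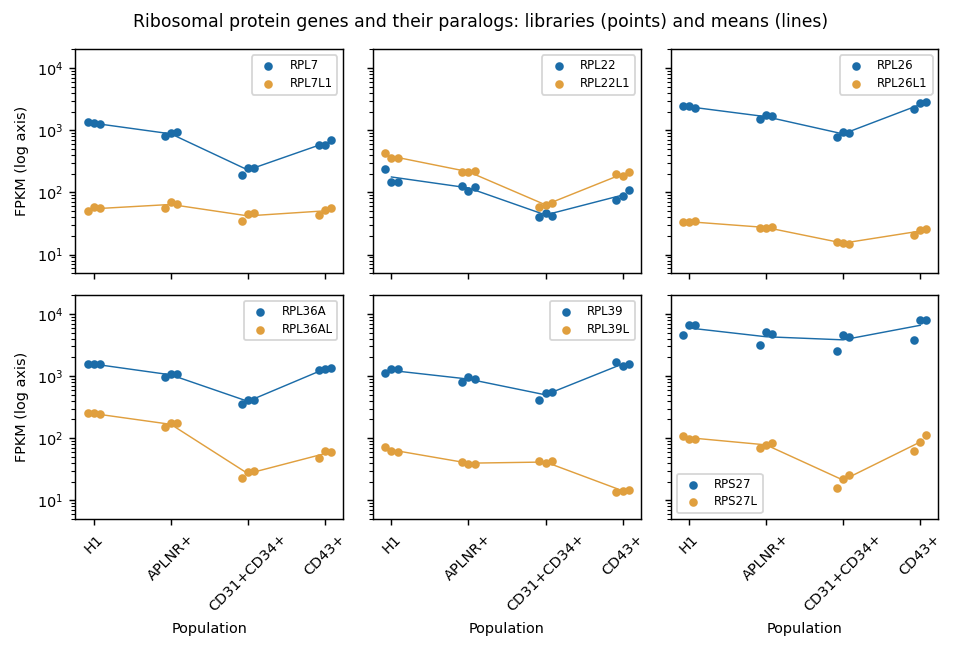
FPKM (log axis) of 6 ribosomal protein genes (blue) and their paralogs (orange) by population, with points for libraries and lines through population means. RPL39L ends at 13.8 to 14.8 FPKM in CD43+ libraries while RPL39 ends at 1428 to 1699 FPKM.

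FAU, outside the symbol rule, makes the small subunit protein eS30 as a fusion with a ubiquitin-like protein. At the APLNR+ step it fell by 0.50 on the log2 scale (SE 0.12, adjusted p = 0.0041). It was at 272, 320 and 267 FPKM in APLNR+, 498, 639 and 548 in CD31+CD34+ and 737, 932 and 770 in CD43+ libraries, and rose at both steps (0.97 ± 0.12, adjusted p = 1.73e-05, and 0.53 ± 0.12, adjusted p = 0.00293). RPS27A, a member made as a fusion with ubiquitin and named here after its values were seen, fell by 1.73 on the log2 scale at the CD31+CD34+ step (SE 0.12, adjusted p = 7.3e-08) and rose by 1.35 ± 0.12 at the next (adjusted p = 1.26e-06).

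Genes that build or use ribosomes did not all share the course of the members. Of 45 ribosome biogenesis genes 13 rose and 26 fell at the CD31+CD34+ step, 16 rose and 1 fell at the CD43+ step, and 3 rose and 32 fell in CD43+ against H1 cells, where the median was -0.71 (log2). Mitochondrial ribosomal protein genes numbered 37 rises and 27 falls of 78 at the CD31+CD34+ step, 42 and 3 at the CD43+ step, and 24 and 29 in CD43+ against H1 cells, with medians of 0.24, 0.40 and -0.04. Translation factor genes counted 12 rises and 19 falls of 35, then 18 and 0, then 14 and 13, with medians of -0.40, 0.37 and -0.09. EEF1A1 with its zeros is among these 35 genes. Over all genes, 35.9% were called higher and 37.9% lower at the CD31+CD34+ step, and 25.9% and 27.8% at the CD43+ step. The shares of all genes in CD43+ against H1 cells were 33.2% higher and 41.5% lower.

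Median changes of members with and without a TOP start lay close together, and their difference was not tested. For the 46 with and the 15 without a tract at the annotated start, the medians were -0.48 and -0.43 at the APLNR+ step, -0.05 and -0.03 at the CD31+CD34+ step, 0.79 and 0.82 at the CD43+ step and 0.32 and 0.39 in CD43+ against H1 cells. The windows printed above show tracts in RPS24 and RPL11 as in RPL18 and RPL36, which moved in opposite directions at the CD31+CD34+ step.

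Some members differed between replicate 1 and the other replicates, in shares near those of all genes. In a model with a term for replicate 1 against replicates 2 and 3, 5 members were higher and 15 lower in replicate 1 (limma, adjusted p under 0.05), or 6.58% and 19.7% of the members, beside 4.66% and 19.1% of all genes. RPS27 was at 4518, 6661 and 6610 FPKM in H1, 3161, 5022 and 4675 in APLNR+, then 2512, 4638 and 4316 in CD31+CD34+ and 3766, 8020 and 7866 in CD43+ libraries, in the order of replicates 1, 2 and 3. Replicate 1 was the lowest in all 4 populations, by 0.77 on average (log2, SE 0.08, adjusted p = 0.000288), and in the model without that term RPS27 was called in none of the 4 comparisons. With the term, RPS27 fell at the APLNR+ step (-0.47 ± 0.11, limma adjusted p = 0.00321) and rose at the CD43+ step (0.75 ± 0.11, adjusted p = 0.000153), and was not called in the other two. RPL41, the smallest ribosomal protein, was lower in replicate 1 by 0.58 on average (SE 0.08).

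RPL13 went the other way, at 1891, 1179 and 1182 FPKM in H1, 1294, 931 and 963 in APLNR+, then 2388, 1778 and 1658 in CD31+CD34+ and 3318, 2969 and 2419 in CD43+ libraries. It was higher in replicate 1 by 0.48 (SE 0.07, adjusted p = 0.00153), and RPS19 by 0.36 (SE 0.07). With the replicate 1 term both also fell at the APLNR+ step, RPL13 with -0.39 ± 0.10 (adjusted p = 0.00419) and RPS19 with -0.32 ± 0.09 (adjusted p = 0.00834). In all 4 populations at once, replicate 1 was higher than the mean of the others in 9 members and lower in 18, beside 10.2% and 29.1% of all genes. The labels name no batch, and what sets replicate 1 apart was not tested.

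The comparisons were also taken within replicate 1 alone and within replicates 2 and 3. Median changes of the members were -0.56 and -0.43 at the APLNR+ step, -0.18 and -0.02 at the CD31+CD34+ step, 0.84 and 0.82 at the CD43+ step, and 0.17 and 0.40 in CD43+ against H1 cells. Within replicate 1 alone, 0 members were higher and 76 lower in APLNR+ than in H1 cells. From CD31+CD34+ to CD43+ cells 76 were higher and 0 lower, and neither count was tested. The share of all genes was not computed within replicate 1 alone, so these counts do not show anything particular to the members.

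**Figure D5:**
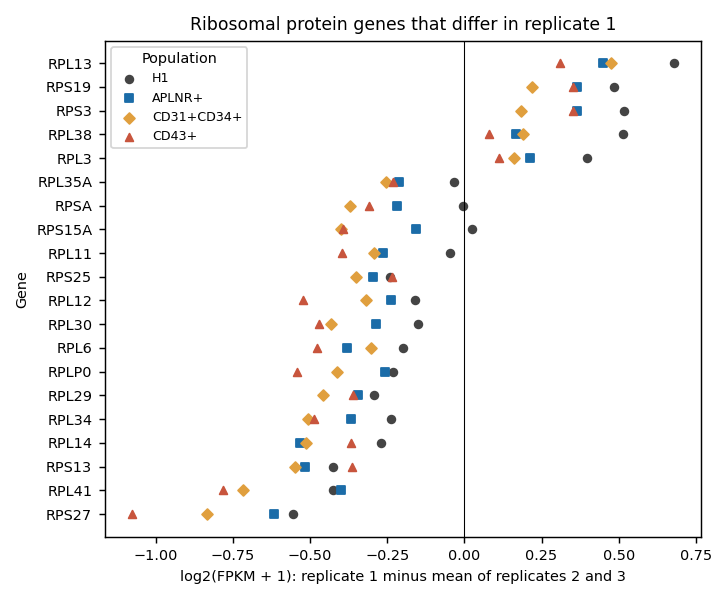
log2(FPKM + 1) of replicate 1 minus the mean of replicates 2 and 3, for each population (symbols), in the 20 ribosomal protein genes called for the replicate 1 term. RPS27 is between -0.55 and -1.08 and RPL13 between 0.31 and 0.68 in the 4 populations.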

How the data were processed

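Per the labels, Trizol was used for total RNA and an Illumina TruSeq kit for the libraries. The authors deposited their FPKM values as 1 table with 12 library columns, and groups and replicate numbers came from the sample titles. The submitters' processing notes name BWA, Bowtie, RSEM and the build hg19, with no order or version, and the methods give sequencing companies but not the libraries each of them ran. The gene annotation used and how libraries were scaled are not given in the sources used here. The table held 58366 lines, of which 1 with text was left out. For 345 symbols on several lines, none of them a member, the line of highest mean was used. The values are not counts and read depth is unknown, so the precision rests on 3 libraries per population.

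Values were transformed as log2(FPKM + 1), so changes of low genes are understated. Genes with at least 1 FPKM in at least 3 libraries were fitted with limma 3.58.1 in R 4.3.3 (all 4 populations in 1 model, no covariate, eBayes with trend) and adjusted by Benjamini-Hochberg over the 14840 genes. A call is an adjusted p under 0.05, counted also at 2-fold or more. The fit was tested on simulated data. Members, gene lists (60S, 40S, Diamond-Blackfan, mitochondrial ribosomal, translation factor, ribosome biogenesis, paralog and marker lists) and tests were chosen with earlier results of these data known. Named genes were, per comparison, the called members with the 3 greatest increases and the 3 greatest decreases, the 5 highest and 3 lowest means, members with both a 0 and at least 10 FPKM (none), the P stalk genes, RPSA, RPS19, RPL5, RPL11, RPS26, the paralogs and their parents and FAU. Values of some genes under this rule are not reported here. GC content and length came from GENCODE 29 by symbol and promoter windows from RefSeq. Alternatives were a pseudocount of 0.1, no filter, other scalings, replicate terms, left-out libraries, zeros as missing, summed pseudogene rows or lines, eBayes without trend and, added after seeing the data, centring in 20 bins of GC content. Pseudogene rows held at most 5.27% of the level of a tested member summed with its pseudogenes. For RPS29, itself at 0, they held 100%, at a summed mean of 4.32 FPKM.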

Additional observations from a re-analysis of the deposited data

How the results depend on the processing

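FPKM without counts gives no read depth, and 3 libraries per population and unknown scaling limit the comparisons. In APLNR+ against H1 cells, the members' median log2 change was -0.36 with upper-quartile scaling, -0.15 with quantile normalization (15 lower, 1 higher) and -0.25 after rescaling without small RNAs (1 lower), where RPS24 (-0.50, adjusted p = 0.105) and RPL23 (-0.48, adjusted p = 0.112) were no longer called. In CD31+CD34+ against APLNR+ cells, the median was -0.33 with quantile normalization and -0.21 with centring by GC content (16 higher, 12 past 2-fold). In CD43+ against CD31+CD34+ cells, quantile normalization gave a median of 0.47, 3 lower and 17 past 2-fold, rescaling a median of 0.68 and centring by GC content 0.93. In CD43+ against H1 cells, the median was 0.40 with upper-quartile scaling, 0.049 with quantile normalization (26 higher, 4 past 2-fold) and 0.40 with replicates 2 and 3 only, rescaling left 6 lower, and centring by GC content left 3 past 2-fold. The cause was not tested in any of these.

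Leaving out each library in turn gave medians of -0.49 to -0.44, -0.12 to 0.0020, 0.76 to 0.94 and 0.27 to 0.43 in the order above, with 55 to 63 members lower, 25 to 28 higher and 28 to 30 lower, 62 to 68 higher, and 36 to 40 higher and 13 to 17 lower. The highest medians of the last 3 came without replicate 1 of CD31+CD34+ or CD43+ cells. Shares of all genes with a library left out are not given here, so these counts describe the members only. A pseudocount of 0.1, no filter, zeros as missing, summed pseudogene rows, summed lines and eBayes without trend moved no count by over 1.5 times. None of the 3 largest rises and falls per comparison was reversed under any setting. Among other named genes, centring by GC content turned RPL36A in CD43+ against H1 cells from a called fall to a called rise of 0.27. It turned RPLP2 at the CD31+CD34+ step from a rise that was not called to a called fall, with -0.56. Same-numbered libraries had correlations of their deviations between -0.0214 and 0.429, with a median of 0.20, beside -0.15 for libraries of different numbers. Among replicate 1 libraries they ran from 0.196 to 0.429. Only 6 of 12 libraries correlated best with their own number, so the numbers were not taken as pairs in the main model. That model therefore leaves the difference of replicate 1 in its spread. With a replicate block, 73 members were lower, 29 higher and 32 lower, 71 higher, and 44 higher and 18 lower at the 4 comparisons. These were 96.1%, 38.2% and 42.1%, 93.4%, and 57.9% and 23.7% of members. The shares of all genes were 40.3%, 38.3% and 40.1%, 31.1%, and 35.9% and 43.8%, so those at the CD31+CD34+ step were close. With the block, RPS27, RPL13, RPL6, RPL3, RPLP0 and RPS19 were also called at the APLNR+ step.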
